A study of Mus musculus with 6 samples.

Results

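The 10 epidermal barrier ceramide genes were described in bulk RNA sequencing of cells sorted from mouse skin squamous cell carcinoma. They were chosen by symbol, and each symbol matched a single row among the 55481 gene rows of the deposited table. Of these, 6 act mainly in the making of the skin barrier (Elovl4, Cers3, Pnpla1, Abca12, Alox12b and Aloxe3), and 4 belong to sphingolipid synthesis in most cells (Sptlc1, Sptlc2, Degs1 and Ugcg). The tumours were raised in mouse skin with the carcinogen DMBA and the promoter TPA. Cells of high Itga6, an integrin chain of basal keratinocytes, that carried CD80, a co-stimulatory ligand, form the Itga6hi CD80pos group and are called stem-like by the submitters. Cells of low Itga6 without CD80 form the Itga6low CD80neg group and are called differentiated. Each group had 2 libraries, and the third group of the series, Itga6hi CD80neg, was not analysed here. All groups come from the same kind of carcinogen-treated tumour, with no untreated skin. The mouse strain, the age and the number of animals are not given in the sources used here. The p-values therefore measure only the spread between these libraries, which may be technical.

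The outer layer of skin holds water because its dead cells are sealed by a lipid matrix rich in ceramides. A keratinocyte makes the ceramide backbone as other cells do, then joins it to fatty acids of extreme length, esterifies these with linoleic acid, adds glucose and loads the product into lamellar bodies. After secretion the glucose is removed, and oxidised forms are bound to the protein envelope of the dying cell. In human families, loss of several of these genes causes ichthyosis, a disease of scaling skin. In normal epidermis the barrier steps belong to the upper spinous and granular layers rather than to the basal layer.

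The stretches just before the gene starts are shown for 4 members, to let the CG content of 3 barrier genes be seen beside that of a general gene. The 3 barrier genes shown are those of lowest CG content. Each is the 250 bases before a RefSeq gene start on GRCm38.p6, in the direction of the gene, and capitals mark CG, the dinucleotide that is frequent in promoters of broadly active genes. The windows lie at chr7:66743254-66743503 (plus strand) for Cers3, chr1:71414911-71415160 (minus strand) for Abca12, chr17:28858161-28858410 (plus strand) for Pnpla1 and chr12:87388356-87388605 (minus strand) for Sptlc2.
Cers3: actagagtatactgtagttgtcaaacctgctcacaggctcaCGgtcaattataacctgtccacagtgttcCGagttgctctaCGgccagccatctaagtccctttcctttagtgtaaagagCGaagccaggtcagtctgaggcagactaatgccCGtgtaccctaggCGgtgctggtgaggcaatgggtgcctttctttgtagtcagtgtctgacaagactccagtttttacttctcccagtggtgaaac
Abca12: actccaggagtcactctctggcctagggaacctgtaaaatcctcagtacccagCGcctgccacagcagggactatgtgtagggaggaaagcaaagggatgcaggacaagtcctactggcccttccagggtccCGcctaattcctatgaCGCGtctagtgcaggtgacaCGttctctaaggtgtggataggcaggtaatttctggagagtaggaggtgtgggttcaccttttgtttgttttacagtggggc
Pnpla1: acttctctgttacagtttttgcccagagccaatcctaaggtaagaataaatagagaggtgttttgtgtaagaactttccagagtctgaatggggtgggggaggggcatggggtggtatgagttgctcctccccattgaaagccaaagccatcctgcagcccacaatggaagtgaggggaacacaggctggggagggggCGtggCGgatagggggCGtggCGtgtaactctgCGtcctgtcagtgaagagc
Sptlc2: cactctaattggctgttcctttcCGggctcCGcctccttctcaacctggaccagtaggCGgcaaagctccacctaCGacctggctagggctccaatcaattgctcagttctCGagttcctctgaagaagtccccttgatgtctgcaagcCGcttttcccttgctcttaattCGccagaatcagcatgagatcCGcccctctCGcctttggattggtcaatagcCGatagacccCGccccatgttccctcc

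The barrier genes Cers3, Abca12 and Pnpla1 had 6, 5 and 5 CG in these windows, against 11 in Sptlc2. The ratio of observed to expected CG was 0.39, 0.29 and 0.30 in these barrier genes, close to the median of 0.37 over 32851 windows of the table. The general genes lay at 0.62 for Sptlc2, 0.63 for Degs1, 1.02 for Sptlc1 and 1.07 for Ugcg. The other 2 matched barrier genes lay at 0.83 for Elovl4, above Sptlc2 and Degs1, and 0.46 for Alox12b, so the 2 kinds of gene overlapped. RefSeq windows were matched for 9 of the 10 members. By the gene positions given below, the windows of Degs1 and Ugcg lay within the gene. Those of Sptlc1 and Alox12b lay partly within it, so these values do not all come from sequence before the gene. Among letters searched on both strands, GGGCGG, the core of Sp-factor sites, was present in 5 of the 9 windows and in 32.7% of all windows. CCAAT was present in 3 of 9 and in 33.8% of all windows. None of the 9 windows held the TATA box letters TATAAA, which 12.4% of all windows had. The AP-1 letters TGANTCA were likewise in none, against 6.75% of all windows. The Grainyhead letters AACNGGTT were in none, against 1.79%. A match of letters is a description only.

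Before the members are compared, the makeup of the libraries matters. Haemoglobin genes held 70.9% and 50.4% of all TPM in the Itga6low CD80neg libraries, and 0.0185% and 0.00621% in the Itga6hi CD80pos libraries. TPM are transcript levels per length scaled to a fixed total in each library, so a large share for a few genes leaves less for all others, and the median log2 fold change of the 13474 genes tested was 1.27. Depth is not recorded in TPM and is unknown. Fibroblast markers summed to 8669 and 5312 TPM in Itga6low CD80neg and to 88.6 and 63.6 TPM in Itga6hi CD80pos, led by Col3a1, and 7 of 8 were lower in Itga6hi CD80pos. Of 7 red cell markers, led by Hbb-bs, 7 were lower in Itga6hi CD80pos. Melanocyte markers, led by Dct, summed to 24.2 and 117 TPM in Itga6low CD80neg and to 1.18 and 1.26 TPM in Itga6hi CD80pos. The 6 epithelial markers, led by Perp, summed to 3558 and 3544 TPM in Itga6hi CD80pos and to 238 and 825 TPM in Itga6low CD80neg. Of 14 suprabasal genes tested, 3 were higher and 1, Lor, was lower in Itga6hi CD80pos. Over all tested genes 57.0% were called higher and 9.48% lower. The suprabasal median log2 fold change was 1.06, against 1.27 for all tested genes, and no reading of the differentiated label is drawn from these counts. In these bulk libraries, fewer cells of a type and less RNA per cell cannot be told apart.

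On deposited TPM, 6 members were higher in Itga6hi CD80pos and none was lower (0 calls by limma, and 0 at an unadjusted p under 0.05). They were the general genes Sptlc1, Sptlc2 and Degs1 and the barrier genes Cers3, Pnpla1 and Abca12, with means 2.12 to 5.37 times as high. A call means an adjusted p under 0.05 in limma on log2(TPM + 1), fitted over all genes, a scale that understates the change of low genes. Below, fits without an Itga6hi CD80pos library, with the filter on low values applied again, pooled the spread over genes. They ignored a gene's own spread, so calls kept or lost in them do not measure that gene's replicates. The count is 6 of 9 tested members, while 57.0% of all tested genes were called higher, 9.48% lower and 66.5% in either direction, so the members' count is near the background. In 6 of the 10 members both Itga6hi CD80pos libraries were above both others, as in 73.5% of tested genes. Their median log2 fold change was 1.42, against 1.27 for all genes. Aloxe3 did not reach 1 TPM in any library and was not tested. The members with no call were Elovl4, Alox12b and Ugcg.

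Degs1 had the highest mean level of the 10 in both groups and Aloxe3 the lowest. In Itga6hi CD80pos the order of mean TPM ran from Degs1 through Sptlc2, Sptlc1, Elovl4, Cers3, Abca12, Ugcg, Pnpla1 and Alox12b to Aloxe3. Of the 9 neighbouring pairs in that order, 4 overlapped between libraries: Sptlc1 with Elovl4, Abca12 with Ugcg, Ugcg with Pnpla1 and Pnpla1 with Alox12b. In Itga6low CD80neg the order was Degs1, Sptlc2, Elovl4, Ugcg, Sptlc1, Cers3, Alox12b, Pnpla1, Abca12 and Aloxe3. There, 8 of 9 neighbouring pairs overlapped, all but Abca12 and Aloxe3.

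**Figure D1:**
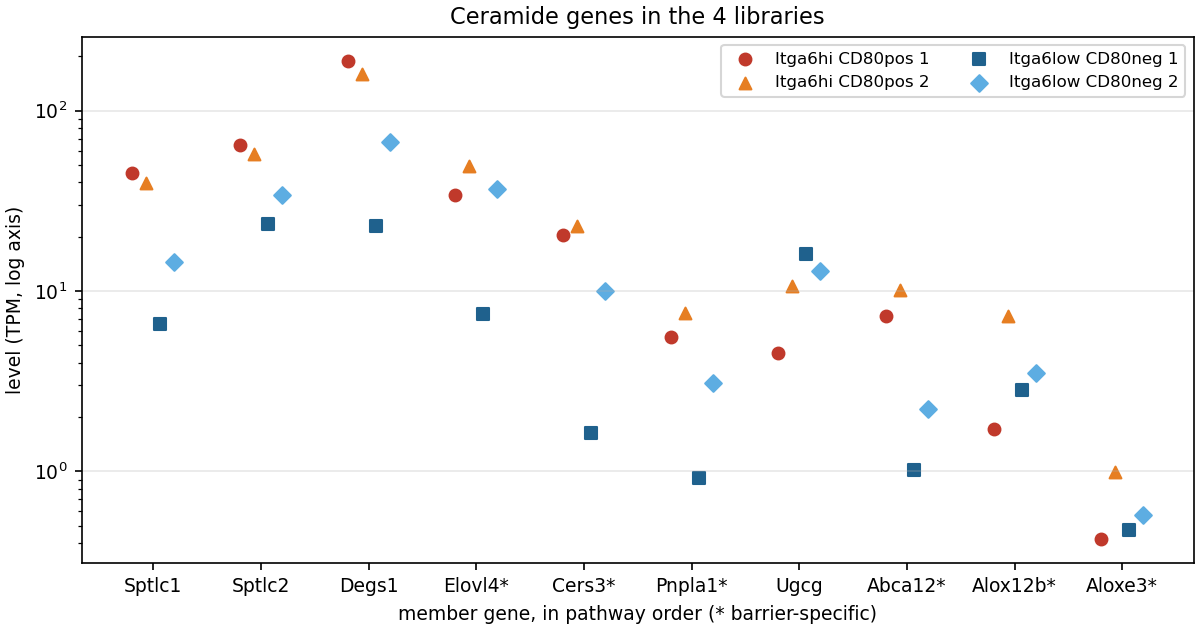
Level of each member (TPM, log axis) in the 4 libraries, in the order of the pathway; each point is 1 library and stars mark barrier-specific genes. Ugcg is the gene whose Itga6low CD80neg points (16.1 and 12.9 TPM) both lie above its Itga6hi CD80pos points (4.52 and 10.6 TPM), and Elovl4, Alox12b and Aloxe3 overlap between groups.

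The backbone enzymes come first. Sptlc1 (chromosome 13, 53332748 to 53377397, minus strand, GRCm38) encodes a subunit of serine palmitoyltransferase, which starts all sphingolipid synthesis. Its level was 45.0 and 39.7 TPM in Itga6hi CD80pos and 6.60 and 14.5 TPM in Itga6low CD80neg. Both Itga6hi CD80pos libraries were above both others, and the lower Itga6low CD80neg value came from replicate 1, the library with the larger haemoglobin share. The log2 fold change was 1.99 ± 0.43 (SE), adjusted p = 0.0134, and leaving out Itga6hi CD80pos replicate 1 ended the call (adjusted p = 0.0527). Sptlc2 (chromosome 12, 87305058 to 87388355, minus strand) encodes the catalytic partner and measured 64.4 and 57.5 TPM, compared with 23.5 and 34.1 TPM. Its groups did not overlap either, but its log2 difference, 1.08 ± 0.36 (SE) with an adjusted p = 0.0429, was under the median of all genes. That call was lost without either Itga6hi CD80pos library (adjusted p = 0.377 and 0.293). Sptlc3, the alternative catalytic chain, held 1.11% and 2.07% of the summed TPM of both chains in Itga6hi CD80pos and 2.15% and 5.73% in Itga6low CD80neg, so Sptlc2 supplied nearly all of it in the 4 libraries.

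Degs1 (chromosome 1, 182275772 to 182282804, minus strand) encodes the desaturase that turns dihydroceramide into ceramide. It stood at 189 and 160.5 TPM in Itga6hi CD80pos and at 22.8 and 66.6 TPM in Itga6low CD80neg. The groups were apart, and within Itga6low CD80neg the libraries differed 2.92-fold. Its log2 difference, 2.13 ± 0.58 (SE) with an adjusted p = 0.0249, was the largest of the 9 tested members on this scale, but with a pseudocount of 0.1 Abca12 (2.43) and Cers3 (2.38) exceeded Degs1 (2.16), and under each other scaling both did too. Leaving out either library of Itga6hi CD80pos ended the call (adjusted p = 0.116 without replicate 1 and 0.0735 without replicate 2), and the fold change was 1.38 without Itga6low CD80neg replicate 1. Degs2, a relative that also hydroxylates and makes phytoceramides, held 0.951% and 2.91% of the summed TPM of both in Itga6hi CD80pos and 1.64% and 5.92% in Itga6low CD80neg.

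The enzymes that give barrier ceramides their length follow. Elovl4 (chromosome 9, 83778692 to 83806277, minus strand) encodes the elongase that makes fatty acids of extreme length. Its level was 33.8 and 49.4 TPM in Itga6hi CD80pos and 7.46 and 36.7 TPM in Itga6low CD80neg. The groups overlapped, since Itga6low CD80neg replicate 2 exceeded the lower Itga6hi CD80pos library, and limma gave no call (log2 fold change 1.23 ± 0.74 SE, adjusted p = 0.188). Without Itga6low CD80neg replicate 2 the fold change was 2.31, with a call (adjusted p = 0.00645), and without replicate 1 it was 0.15 (adjusted p = 0.668). Cers3 (chromosome 7, 66743504 to 66823691, plus strand) encodes the ceramide synthase that accepts these fatty acids. It stood at 20.5 and 22.9 TPM in Itga6hi CD80pos and at 1.63 and 9.98 TPM in Itga6low CD80neg. The groups did not overlap, although the Itga6low CD80neg libraries lay 6.12-fold apart. Its log2 fold change was 2.08 ± 0.69 (SE), adjusted p = 0.0433, and became 1.05 when Itga6low CD80neg replicate 1 was left out and 3.11 when replicate 2 was, with the call kept in both.

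Pnpla1 (chromosome 17, 28858411 to 28890309, plus strand) encodes the transacylase that attaches linoleic acid and so completes acylceramide. Its level was 5.53 and 7.55 TPM in Itga6hi CD80pos and 0.915 and 3.10 TPM in Itga6low CD80neg. The 2 groups were apart, and the log2 difference was 1.42 ± 0.45 (SE) at an adjusted p = 0.0369. With a pseudocount of 0.1 neither Pnpla1 (adjusted p = 0.0532) nor Cers3 (0.0590) was called, and 4 members were. It did not pass with Itga6hi CD80pos replicate 2 left out (adjusted p = 0.112), nor with Itga6low CD80neg replicate 1 left out (0.0706), where the difference was 0.87. The annotated antisense gene Pnpla1os was at no more than 0.0363 TPM in any library.

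Of the genes for glucose transfer and export, Abca12 was higher on deposited TPM and Ugcg had no call, and no scaling called both. Ugcg (chromosome 4, 59189257 to 59222833, plus strand) encodes glucosylceramide synthase, which serves both the barrier and the glycosphingolipids of most cell membranes. It stood at 4.52 and 10.6 TPM in Itga6hi CD80pos and at 16.1 and 12.9 TPM in Itga6low CD80neg. Both Itga6hi CD80pos values were below both others, which was so for 12.9% of all tested genes. Limma on deposited TPM gave a log2 fold change of -0.94 ± 0.44 (SE) and no call (adjusted p = 0.106), and 10.6% of tested genes had a lower fold change. Without Itga6hi CD80pos replicate 1 the fold change was -0.41, and without its replicate 2 it was -1.48, with no call in either. Abca12 (chromosome 1, 71242276 to 71414910, minus strand) encodes the transporter that loads glucosylceramide into lamellar bodies. Its level was 7.24 and 10.2 TPM in Itga6hi CD80pos and 1.02 and 2.22 TPM in Itga6low CD80neg. The libraries of each group kept together, the log2 fold change was 1.91 ± 0.36 (SE), adjusted p = 0.00993, and the call held without any single library when the filter on low values was applied again to the other 3 (adjusted p from 0.00724 to 0.0301). If instead the genes that pass over all 4 libraries are kept, none of the 6 calls held without either Itga6hi CD80pos library; for Abca12 the adjusted p was then 0.0853 and 0.0871, and for Cers3 0.167 and 0.178.

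The lipoxygenases that oxidise acylceramide had the lowest mean levels in Itga6hi CD80pos, whereas in Itga6low CD80neg Alox12b was above Pnpla1 and Abca12. Alox12b (chromosome 11, 69156989 to 69169792, plus strand), which takes the first oxidation step, stood at 1.72 and 7.26 TPM in Itga6hi CD80pos and at 2.82 and 3.50 TPM in Itga6low CD80neg. Both Itga6low CD80neg values fell between the Itga6hi CD80pos values, which lay 4.22-fold apart. Its log2 fold change was 0.19 ± 0.56 (SE, adjusted p = 0.774), and it was 0.995 without Itga6hi CD80pos replicate 1 and -0.61 without its replicate 2. Aloxe3, which takes the second step and lies 7873 bases away from Alox12b on the same strand (69125896 to 69149115), measured 0.422 and 0.987 TPM, compared with 0.473 and 0.572 TPM. For both genes the highest library was Itga6hi CD80pos replicate 2 and the lowest was its replicate 1.

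When each member was read against the other scalings of the same libraries, its direction depended on the gene. The scalings were median of ratios, quantile normalization, TPM without haemoglobin genes, and TPM without mitochondrial, ribosomal protein, haemoglobin and keratin genes. Under each of these 4, 0 members were called higher, with 1, 1, 1 and 3 members higher at an unadjusted p under 0.05. Over all genes, 1373, 1448, 1039 and 1851 were called higher in that order, of 13273 to 13474 tested. Lower calls over all genes numbered 1610, 1517, 1458 and 1497. The members' counts of calls were near these shares. Abca12 kept log2 fold changes of 0.95 to 1.21 and Cers3 of 0.94 to 1.20, with adjusted p no lower than 0.0855 and 0.228. Sptlc1 lay between 0.67 and 0.94, Degs1 between 0.76 and 1.01, and Pnpla1 between 0.45 and 0.68. Sptlc2 turned to between -0.30 and -0.04 and Alox12b to between -0.97 and -0.62. Elovl4 lay between -0.09 and 0.15. Ugcg was the member furthest below 0, at -2.28 to -2.08, and was called lower under median of ratios (adjusted p = 0.0390), quantile normalization (0.0404) and the 4 left-out gene classes (0.0489), but not without haemoglobin genes alone (0.0534). The median of all genes moved to 0.24, 0.27, 0.16 and 0.39 in the same order.

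**Figure D2:**
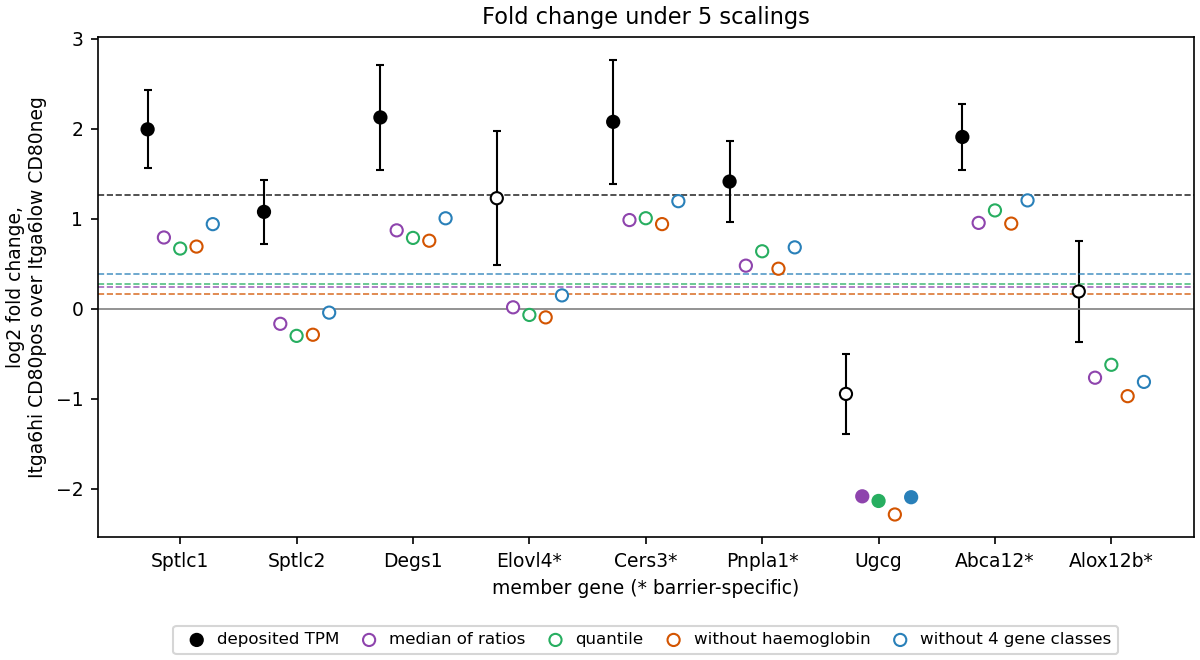
Log2 fold change of the 9 tested members on deposited TPM (black, bars are ± 1 SE) and under 4 other scalings (colours); filled points have an adjusted p under 0.05, and dashed lines give the median of all tested genes in each scaling. The 6 filled black points have no filled counterpart, and Ugcg lies lowest in every scaling shown, from -0.94 to -2.28.

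Barrier-specific and general genes were then compared within each library, where a scaling factor cancels only in part, because of the pseudocount. The mean log2(TPM + 1) of the 6 barrier genes minus that of the 4 general genes was -2.52 and -2.05 in Itga6hi CD80pos and -2.56 and -2.20 in Itga6low CD80neg. The groups overlapped, and their means differed by 0.10, less than the spread within them (pooled SD 0.30). This difference was -0.26 with a pseudocount of 5, 0.41 without haemoglobin genes and 0.59 under quantile normalization. The sign of this difference turned without Itga6hi CD80pos replicate 2 (-0.14) and without Itga6low CD80neg replicate 1 (-0.08). The general genes were not alike: Ugcg had a log2 fold change of -0.94, against 1.08 to 2.13 in the other 3. The difference of 0.10 therefore holds only with Ugcg, which also serves the barrier, counted among the general genes. Without Ugcg its sign would be negative, since the other 3 general genes rose by more on average than the barrier genes. With 2 libraries a group an exact permutation test cannot give a p under 0.333, so no test is reported. Of the 5 barrier genes tested, 3 were called higher, with a median log2 fold change of 1.42, and of the 4 general genes 3 were, with a median of 1.54.

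Libraries of the same group differed in the barrier genes in 1 direction. All 6 were higher in replicate 2 than in replicate 1 of Itga6hi CD80pos (median ratio 1.43), whereas 1 of the 4 general genes, Ugcg (2.35-fold), was, and so were 39.9% of all tested genes. In Itga6low CD80neg all 6 were again higher in replicate 2 (median ratio 2.78), as were 3 of 4 general genes and 63.5% of all tested genes. The same Itga6hi CD80pos library was also higher in 12 of 16 suprabasal genes, with Flg, the precursor of a cornified layer protein, at 36.9 TPM against 4.48 TPM. Itga6low CD80neg replicate 2 had the larger keratin share, at 1.53% of TPM against 0.517%. The part of these differences in the results was not tested.

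Set against keratinocyte genes of the same library, the position of the members depended on which genes were used. Itga6 was used in the sort and marks basal cells, so the basal genes are not independent of it. The median member minus the mean of the 6 epithelial markers was -3.84 and -3.79 log2 units in Itga6hi CD80pos and -1.68 and -1.70 in Itga6low CD80neg. All 10 members were lower in both Itga6hi CD80pos libraries on this measure. The epithelial mean itself was 7.58 and 7.85 in Itga6hi CD80pos and 4.11 and 5.33 in Itga6low CD80neg. Over all tested genes the median log2 fold change was 1.27, so a gene at that median would also be lower on this measure. Against 6 basal genes, led by Krt14, the median member lay at -6.03 and -5.93 in Itga6hi CD80pos and at -1.80 and -1.28 in Itga6low CD80neg. Against 16 suprabasal genes, led by Krtdap, it was -1.54 and -1.66 in Itga6hi CD80pos and -1.92 and -1.64 in Itga6low CD80neg, and the groups overlapped. On the suprabasal measure Cers3, Abca12, Pnpla1, Sptlc1 and Degs1 were higher in both Itga6hi CD80pos libraries, Aloxe3 and Ugcg were lower, and the other 3 members overlapped. The suprabasal mean itself was 5.28 and 5.72 in Itga6hi CD80pos and 4.35 and 5.27 in Itga6low CD80neg. That rise is smaller than 1.27, so a gene at the all-gene median would also be higher on average on this measure. The share of all tested genes that were higher or lower on these measures was not computed, so the counts have no background. General members are also made by fibroblasts and other cells. Fibroblast, red cell and melanocyte markers summed higher in Itga6low CD80neg, and leukocyte sums overlapped. Endothelial markers summed to 4.19 and 9.17 TPM in Itga6hi CD80pos and to 0.550 and 2.23 TPM in Itga6low CD80neg. Sebaceous gland markers summed to 17.8 and 13.4 TPM, compared with 2.47 and 3.57 TPM. The part of these cells in the members' values was not tested.

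**Figure D3:**
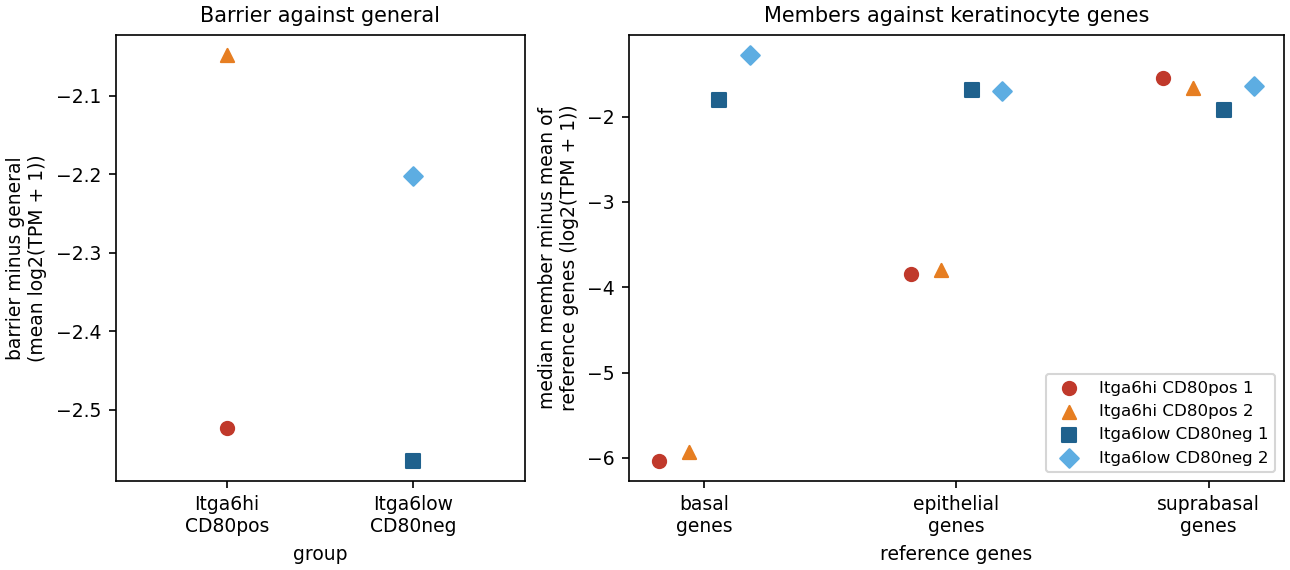
Left, mean log2(TPM + 1) of the 6 barrier genes minus that of the 4 general genes, 1 point per library; right, the median of the 10 members minus the mean of basal, epithelial or suprabasal genes in the same library. The groups overlap on the left (-2.52 and -2.05 against -2.56 and -2.20) and against suprabasal genes, and lie apart against basal and epithelial genes.

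The barrier enzymes Cers3, Elovl4, Alox12b and Aloxe3 were also given as a share of their family's summed TPM, a measure chosen after the values were seen. Cers3 made up 17.8% and 25.8% of ceramide synthase TPM in Itga6hi CD80pos and 4.25% and 21.6% in Itga6low CD80neg, so its groups overlapped. Cers2, the synthase of most tissues, held 22.7% and 29.8% against 53.9% and 37.4%. That share was lower in both Itga6hi CD80pos libraries, although the TPM of Cers2 was higher there (26.1 and 26.4 against 20.7 and 17.3). Elovl4 held 15.3% and 22.6% of elongase TPM against 15.9% and 30.8%, with overlap, and Elovl1, the broad elongase for very long chains, held 52.5% to 60.1% in all 4 libraries. Among lipoxygenases, Alox12b held 8.72% and 14.6% in Itga6hi CD80pos against 42.3% and 29.1% in Itga6low CD80neg. Aloxe3 held 2.14% and 1.99% against 7.08% and 4.77%. Alox12e, an epidermal lipoxygenase of the mouse, held 65.0% and 75.4% against 2.41% and 15.8%. Its TPM, 12.8 and 37.5 against 0.161 and 1.89, is part of the family sum, so a lower share is not a lower level. The TPM of Alox12b overlapped between the groups (means 4.49 and 3.16), and Aloxe3 was under 1 TPM in every library.

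**Figure D4:**
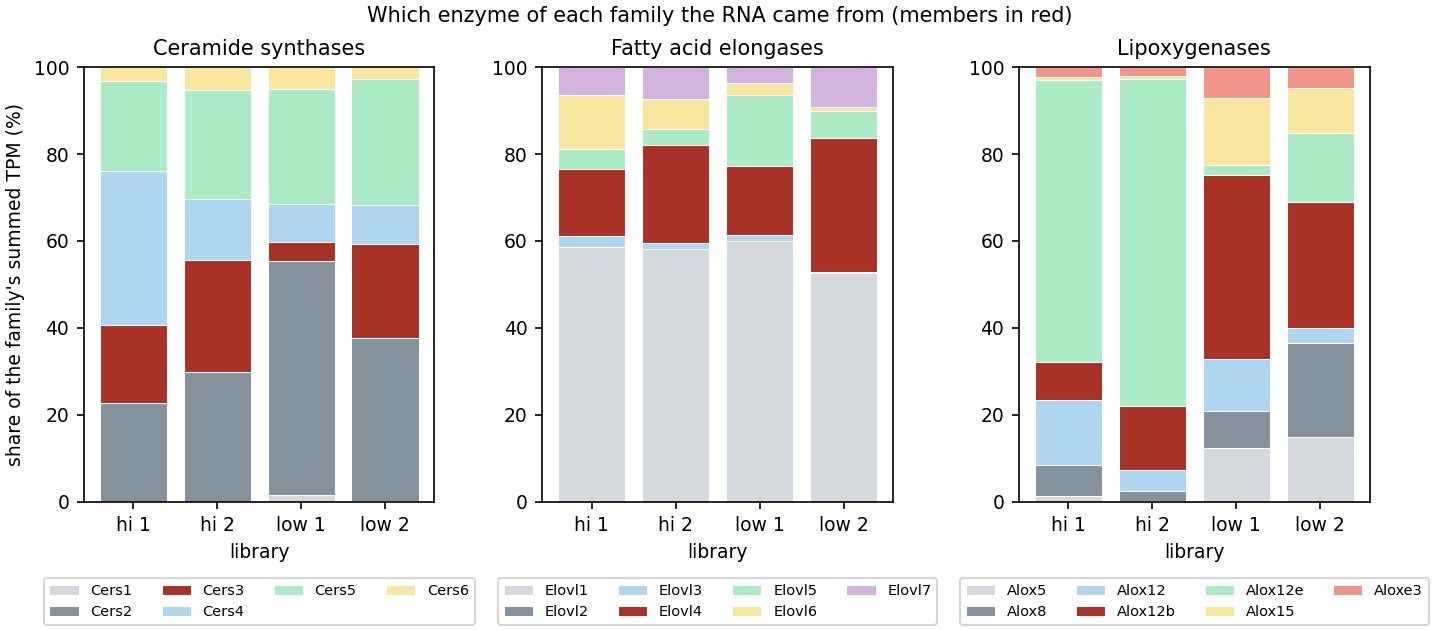
Share (%) of each enzyme in the summed TPM of its family, for ceramide synthases, fatty acid elongases and lipoxygenases, 1 bar per library (hi, Itga6hi CD80pos; low, Itga6low CD80neg); members are in red. Alox12e fills most of the lipoxygenase bar in Itga6hi CD80pos (65.0% and 75.4%), where Alox12b holds 8.72% and 14.6%.

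Other genes of the pathway were read from lists with the same test. Of 15 further barrier lipid genes, 7 were higher in Itga6hi CD80pos and 0 were lower by limma (0 lower at an unadjusted p under 0.05), with a median log2 fold change of 0.99. Over all tested genes 57.0% were higher and the median was 1.27, the values against which this and the following lists are to be read. Sptssb, a small subunit of serine palmitoyltransferase, measured 97.1 and 10.4 TPM, compared with 2.24 and 1.31 TPM, a log2 difference of 3.61 ± 1.00 (SE; adjusted p = 0.0257). The call ended without Itga6low CD80neg replicate 1 (adjusted p = 0.0854) or replicate 2 (0.107), and the difference was 2.06 without Itga6hi CD80pos replicate 1. Cyp4f39, the hydroxylase that prepares fatty acids for linoleate transfer, measured 29.7 and 26.5 TPM, compared with 3.55 and 7.46 TPM (2.23 ± 0.40, adjusted p = 0.00852). Ephx3, an epoxide hydrolase, measured 36.2 and 31.9 TPM, compared with 3.53 and 12.1 TPM (adjusted p = 0.0199; log2 difference 2.18, or 1.42 without Itga6low CD80neg replicate 1), and Nipal4, an ichthyosis gene, measured 13.3 and 17.8 TPM, compared with 2.16 and 5.50 TPM (adjusted p = 0.0165). Sdr9c7, the dehydrogenase that acts after the lipoxygenases, measured 1.31 and 4.02 TPM, compared with 2.65 and 11.1 TPM, with no call (adjusted p = 0.253). Under the other scalings 1 of the 15, Cyp4f39, was called, and only with the 4 gene classes left out (adjusted p = 0.0408).

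Of 10 tested genes of general ceramide synthesis, out of 11 listed, 7 were higher and 0 lower by limma (median 1.23, 0 lower at an unadjusted p under 0.05). Cers4 measured 41.0 and 12.5 TPM, compared with 3.41 and 4.17 TPM (log2 difference 2.32 ± 0.58 SE, adjusted p = 0.0191), a call that ended without Itga6hi CD80pos replicate 1 (1.496, adjusted p = 0.0656) and without either Itga6low CD80neg library (0.0756 and 0.0561). The serine palmitoyltransferase regulators Ormdl1, Ormdl2 and Ormdl3 were higher too, by 1.57, 2.28 and 1.25, but 0 of the 10 genes were called under any other scaling, and Ormdl3 turned to -0.14 and -0.10 under quantile normalization and without haemoglobin genes. Ormdl3 was also not called without either Itga6hi CD80pos library (adjusted p = 0.222 and 0.207), and Ormdl2 was at 1.45 without Itga6low CD80neg replicate 1. Of 9 fatty acid elongation genes, 6 were higher (median 1.90). Among these, Elovl3 reached 1 TPM only in Itga6hi CD80pos and passed the filter through that group. Elovl6, which elongates palmitate, measured 27.5 and 15.2 TPM, compared with 1.28 and 1.10 TPM, a log2 difference of 3.30 ± 0.37 (SE; adjusted p = 0.00452). Tecr, the reductase of the elongation cycle, measured 280.3 and 244 TPM, compared with 41.5 and 60.4 TPM (2.36 ± 0.41, adjusted p = 0.00821). Elovl6 and Tecr were called under all 5 scalings, with adjusted p up to 0.0373 and 0.0441, but Tecr was not called on deposited TPM without either Itga6hi CD80pos library (0.0970 and 0.0647). Hsd17b12 and Hacd2, of the same cycle, were higher on deposited TPM by 2.32 and 2.24, and Hacd2 was not called without Itga6hi CD80pos replicate 1 (adjusted p = 0.0735) and was at 1.36 without Itga6low CD80neg replicate 1.

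Genes that use or break down ceramide were called in both directions, as were all tested genes. Of 19 tested out of 21, 8 were higher and 1 was lower, with a median of 0.85. Among the 8, Sgpp2, like Acer2 below, reached 1 TPM only in Itga6hi CD80pos and passed the filter through that group. Under each of the other 4 scalings 1 was higher and 3 were lower. Over all genes, 1039 to 1851 were higher and 1458 to 1610 lower under these scalings, of 13273 to 13474 tested. The list's counts under these scalings were not tested against those of all genes. Acer2, a Golgi ceramidase, measured 11.5 and 9.003 TPM, compared with 0.607 and 0.866 TPM, a log2 difference of 2.69 ± 0.29 (SE, adjusted p = 0.00428). It was called under all 5 scalings, but it reached 1 TPM in Itga6hi CD80pos only and passed the filter through that group. With the filter applied again, Acer2 was not tested without either Itga6hi CD80pos library. With no filter on low values its adjusted p was 0.0294. Smpd4, a sphingomyelinase, Sphk2, a sphingosine kinase, and Cerk, the ceramide kinase, were higher by 2.18, 2.12 and 2.04 on deposited TPM. Under the other 4 scalings they had no call, with log2 differences of 1.06 to 1.32, 0.92 to 1.17 and 0.75 to 1.03. St3gal5, the sialyltransferase that makes ganglioside GM3, was the lower gene, with 2.14 and 0.558 TPM as compared to 6.51 and 5.60 TPM (log2 fold change -1.67 ± 0.41 SE, adjusted p = 0.0184), and was called under all 5 scalings. That call ended when Itga6hi CD80pos replicate 2 was left out (adjusted p = 0.124), and when Itga6low CD80neg replicate 1 (0.0711) or replicate 2 (0.05005) was. B4galt5 and B4galt6, which turn the product of Ugcg into lactosylceramide, were chosen with St3gal5 after their values were seen. B4galt5 measured 0.436 and 1.29 TPM, compared with 5.47 and 1.86 TPM, with no call (adjusted p = 0.0689, but 0.0479 without Itga6hi CD80pos replicate 2 and 0.0251 without Itga6low CD80neg replicate 2), and B4galt6 had 0.301 and 0.249 TPM, compared with 0.475 and 0.4397 TPM, under the filter.

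Among 5 tested genes of the other lipoxygenases, out of 6 listed, 2 were higher and 2 were lower. Alox12, Alox15 and Alox5ap reached 1 TPM only in the group where they were higher. The filter admitted them through that group, so their calls are not independent of it. With no filter on low values none of them was called (adjusted p = 0.104, 0.0956 and 0.182). Alox12e measured 12.8 and 37.5 TPM, compared with 0.161 and 1.89 TPM (log2 fold change 3.65 ± 0.66 SE, adjusted p = 0.00887), and under the other scalings was called with the 4 gene classes left out (0.0449) but not otherwise (0.0520 to 0.0596). Alox12, the platelet-type enzyme, measured 2.92 and 2.45 TPM, compared with 0.805 and 0.400 TPM (adjusted p = 0.0164), and had no call under the other 4 scalings (adjusted p from 0.123 to 0.510) or with no filter on low values (0.104). Alox15 measured 0.158 and 0.306 TPM, compared with 1.02 and 1.25 TPM (adjusted p = 0.0400) and was lower under all 5 scalings, but not without either Itga6hi CD80pos library (adjusted p = 0.431 and 0.312). Alox5ap, the helper of the leukocyte lipoxygenase, measured 0.448 and 0.194 TPM, compared with 1.93 and 18.4 TPM (adjusted p = 0.0493). Its call ended under median of ratios (0.0598) and quantile normalization (0.0901), with a pseudocount of 5 (0.0909), with no filter (0.182), at a mean of at least 5 TPM (0.0541) and without a trend in eBayes (0.0552). Of 5 tested leukocyte markers 2, Ptprc and Lyz2, were lower in Itga6hi CD80pos, at no more than 2.69 and 4.78 TPM in any library. The 8 leukocyte markers, led by S100a9, summed to 1077 and 744 TPM in Itga6hi CD80pos and to 591 and 2588 TPM in Itga6low CD80neg, and their part in the Alox5ap value was not tested.

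The genes whose values over the 4 libraries most resembled the mean of the members, by Euclidean distance on centred log2(TPM + 1) among 12064 named genes, were found for each kind. Nearest to the barrier genes were Dgat1, at a distance of 0.10, Steap1, at 0.11, and Psme1, at 0.12. Nearest to the general genes were Leprotl1, Rab5a and Rprd1a, at 0.02, 0.04 and 0.05. These are likenesses over 4 libraries of 2 groups.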

How the data were processed

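PolyA RNA was extracted with a low-input kit and sequenced from sorted cells, per the labels. The authors deposited TPM per gene, made with kallisto 0.44.0 on the build mm10 per the submitters' processing notes; the annotation and the summing from transcripts to genes are not given in the sources used here. The 4 library columns were matched to samples by library name. Genes that reached 1 TPM in 2 or more libraries were compared on log2(TPM + 1) with limma 3.58.1 in R 4.3.3 (eBayes with a trend, two-sided, Benjamini-Hochberg over 13474 genes), a fit with 2 residual and 3.33 prior degrees of freedom. TPM hold no depth, so no counting interval is given. Gene positions are from GENCODE M21 (GRCm38) and upstream windows from RefSeq (GRCm38.p6). Col4a3bp was matched through RefSeq synonyms. The members, the gene lists and the tests were chosen with earlier results of these data known. Named genes were all members and up to 4 called genes per pathway list by absolute fold change. The highest gene of each marker list and the 3 nearest patterns were named too. Lor, Flg, Ptprc, Lyz2, Sptlc3, Degs2, Cers2, Elovl1, Elovl3, Sdr9c7, Sgpp2, Pnpla1os, St3gal5, B4galt5 and B4galt6 were chosen after their values were seen. Alternatives were other pseudocounts, filters, scalings, a replicate block, eBayes without a trend, and each library left out.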

Additional observations from a re-analysis of the deposited data

How the results depend on the processing

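On deposited TPM, 6 members were higher and 0 lower, out of 7686 higher and 1277 lower genes. Higher genes and members numbered 4564 and 1 with no filter on low values (all genes above 0 in a library), 1373 and 0 under median of ratios, 1448 and 0 under quantile normalization, 1039 and 0 without haemoglobin genes, and 1851 and 0 without mitochondrial, ribosomal protein, haemoglobin and keratin genes. In 3 of these scalings, all but the one without haemoglobin genes, 1 member, Ugcg, was lower. Lower genes numbered 613 at a mean of at least 5 TPM. With each library left out, 0 to 7 members were higher and 0 lower. Over all genes, 2947 to 8386 were higher and 453 to 931 lower with the filter applied again, and 0 to 8227 higher and 0 to 1237 lower with the genes that pass over all 4 libraries, a setting chosen after seeing the data (353 and 174 without Itga6hi CD80pos replicate 2). The counts of 0 came without Itga6hi CD80pos replicate 1, where 4442 and 1033 had an unadjusted p under 0.05. In that setting 0 members were higher without either Itga6hi CD80pos library. With the filter applied again, 3 and 3 were, and the prior degrees of freedom were infinite, so a gene's own spread was ignored.

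The barrier minus general difference of 0.10 was -0.26 with a pseudocount of 5, 0.41 without haemoglobin genes and 0.59 under quantile normalization, and ran from -0.14 to 0.34 with each library left out. The members against suprabasal genes differed by 0.18, or 0.36 with a pseudocount of 0.1. Under median of ratios, quantile normalization, without haemoglobin genes and without the 4 classes, Sptlc2 turned to -0.17, -0.30, -0.29 and -0.041 and Alox12b to -0.76, -0.62, -0.97 and -0.81; Alox12b ran from -0.61 to 0.995 with either Itga6hi CD80pos library left out. Elovl4 turned to -0.067 and -0.094 and Ormdl3 to -0.14 and -0.10 under quantile normalization and without haemoglobin genes. The cause was not tested. The replicate numbers, whose deviations correlated at 0.11, are not known to pair the libraries; with a replicate block 6 members were higher, Sptlc2 lost its call (adjusted p = 0.0944) and Elovl4 gained one (0.0396). Depth is unknown, which limits what Aloxe3, under 1 TPM, can show.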
